A study of Homo sapiens with 22 samples.

Results

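The subject here is 7 genes for cell surface proteins that are targeted, or studied as targets, in the treatment of multiple myeloma: SDC1, TNFRSF17, TNFRSF13B, GPRC5D, SLAMF7, CD38 and FCRL5. They were chosen by name, as therapy targets, and are 7 of 19974 protein-coding genes on the 22 autosomes and the X chromosome. For each gene, every ATAC-seq peak called in the gene body or within 20 kb on either side was taken from all 22 libraries. ATAC-seq (assay for transposase-accessible chromatin) cuts and tags DNA where a transposase can reach it, so a called peak marks a stretch of open chromatin. The libraries came from KMS11 and KMS34, established human multiple myeloma cell lines listed with bone marrow as their tissue and t(4;14), a translocation between chromosomes 4 and 14, as their genotype. Each line was profiled untreated at day 0, and after 4 and 10 days in DMSO (the vehicle) or in NSD2LDD, named in the series title as a way to degrade the histone methyltransferase NSD2. KMS11 was also profiled at day 0 as a line labelled TKO in place of t(4;14), and what TKO stands for was not given in the sources used here. Every group held 2 libraries named as duplicates. The compound's concentration and whether duplicates came from separate cultures were not given, so the p-values reflect the spread between duplicates, which may be technical. Each line is 1 cell line, and a difference between KMS34 and KMS11 is a difference between those lines alone.

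The 7 proteins fall into a few classes. SDC1 (syndecan-1, CD138) is a heparan sulfate proteoglycan that carries growth factors and binds matrix, and is the classic surface marker of plasma cells. TNFRSF17 (BCMA) and TNFRSF13B (TACI) are receptors for the cytokines BAFF and APRIL, which sustain plasma cells in the bone marrow; BCMA can be shed from the surface by gamma-secretase. GPRC5D is an orphan G protein-coupled receptor found on plasma cells and in hair follicles. SLAMF7 (CS1, CD319) is a self-binding receptor of the SLAM family on plasma cells and natural killer cells. CD38 is an ectoenzyme that consumes NAD, and FCRL5 (CD307e) is an Fc receptor-like protein of mature B cells and plasma cells. BCMA and GPRC5D are reached by engineered T cells and T cell-engaging antibodies, and CD38 and SLAMF7 by the antibodies daratumumab and elotuzumab.

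RefSeq promoter windows (GRCh38.p14, 250 bases before to 50 after an annotated start) were found for 5 of the 7 genes, with 2 such windows for SDC1, and TNFRSF17 and SLAMF7 had no entry. The windows printed were chosen because they show the 3 patterns seen at the members' starts: a peak in one line alone, a peak in all 22 libraries, and a peak in none. Each runs 5′ to 3′ on the gene's own strand, and capitals mark matches to the motifs that were searched on both strands.
GPRC5D: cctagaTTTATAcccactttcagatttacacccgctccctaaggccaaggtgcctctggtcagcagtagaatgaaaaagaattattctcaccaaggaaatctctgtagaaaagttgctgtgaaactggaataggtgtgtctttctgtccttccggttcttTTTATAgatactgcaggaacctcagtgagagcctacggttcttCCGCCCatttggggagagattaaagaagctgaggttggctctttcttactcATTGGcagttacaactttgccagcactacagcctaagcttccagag
CD38: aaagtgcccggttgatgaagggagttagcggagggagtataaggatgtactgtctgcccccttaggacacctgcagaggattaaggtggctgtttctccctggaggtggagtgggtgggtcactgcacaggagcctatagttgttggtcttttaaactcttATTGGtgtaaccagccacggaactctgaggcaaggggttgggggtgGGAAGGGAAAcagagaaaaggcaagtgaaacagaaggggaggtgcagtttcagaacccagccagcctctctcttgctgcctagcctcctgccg
SDC1: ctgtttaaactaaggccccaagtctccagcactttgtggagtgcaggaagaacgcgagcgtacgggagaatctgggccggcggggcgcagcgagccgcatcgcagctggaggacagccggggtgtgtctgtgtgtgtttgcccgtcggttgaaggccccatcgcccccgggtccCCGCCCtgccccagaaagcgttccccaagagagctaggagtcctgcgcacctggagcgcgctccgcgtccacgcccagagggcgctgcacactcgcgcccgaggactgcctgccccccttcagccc
TNFRSF13B: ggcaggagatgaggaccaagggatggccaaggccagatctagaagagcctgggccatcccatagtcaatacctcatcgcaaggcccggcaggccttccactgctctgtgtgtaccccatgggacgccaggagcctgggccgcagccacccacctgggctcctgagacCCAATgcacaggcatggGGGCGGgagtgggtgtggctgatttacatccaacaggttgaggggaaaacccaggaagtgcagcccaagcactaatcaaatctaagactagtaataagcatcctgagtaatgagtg

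The motifs, with the share of 15812 promoter windows of that length that hold them, were AP-1 (TGANTCA, 5.76%), the octamer (ATGCAAAT, 1.70%), an ISRE-like repeat (GAAA, any 2 bases, then GAAA again, 3.17%), an ETS-IRF composite element (GGAA, any 2 bases, then GAAA, 2.50%), the TATA box (TATAAA, 9.64%), the GC box (GGGCGG, 58.5%) and the CCAAT box (CCAAT, 36.3%). Where N stands, any base was accepted, and none of the matches below overlapped another. Counted from 1 at the 5′ end of the printed window, GPRC5D held a TATA box at bases 7 to 12 and 161 to 166, a GC box at bases 204 to 209 and a CCAAT box at bases 255 to 259. CD38 held the ETS-IRF composite at bases 208 to 217 and a CCAAT box at bases 162 to 166. Both SDC1 windows and the TNFRSF13B window held a GC box, and the TNFRSF13B and FCRL5 windows held a CCAAT box. A match describes the letters only, and no match to AP-1, the octamer or the ISRE-like repeat was found in these windows.

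The GPRC5D window (chr12:12952121-12952420, minus strand) overlapped a peak in 10 of 10 KMS34 libraries and in 0 of 12 KMS11 libraries, and its covered length in KMS34 was 254 to 300 bp. Of all promoter windows, 1.09% had a peak in every KMS34 library and in no KMS11 library. The CD38 window (chr4:15778078-15778377, plus strand) and the outer SDC1 window (chr2:20225426-20225725, minus strand) overlapped a peak in 22 of 22 libraries, as did 46.2% of promoter windows. The inner SDC1 window (chr2:20225081-20225380) missed a peak in 1 KMS11 library. The windows of TNFRSF13B (chr17:16972069-16972368, minus strand) and FCRL5 (chr1:157552466-157552765, minus strand) overlapped a peak in none of the 22 libraries, as did 36.4% of windows.

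Peak lists held 24979 to 39002 peaks in the 10 KMS11 libraries other than TKO, 26887 and 30699 in the TKO libraries, and 34165 to 52518 in the 10 KMS34 libraries. No read depth was used here, so a site with no called peak cannot be told apart from one sequenced too shallowly to be called, and list length moves with the line. In a bulk assay, fewer cells with an open site and a site less open in each cell cannot be told apart. Of 9 plasma cell marker genes, 8 or 9 had a peak within 1 kb of the gene body in every library, the exception in 12 libraries being JCHAIN. The B cell genes MS4A1 and CD79A, the T cell genes CD3D and CD3G, the myeloid genes CD14, LYZ, CD33, FCN1 and MPO, and the erythroid and megakaryocyte genes GATA1, HBB and PF4 had none in any library. The B cell gene PAX5, the T cell genes CD2 and BCL11B and the myeloid gene CEBPA had a peak in all 22. Summed over all 9 plasma cell markers, which include SDC1 and TNFRSF17, covered length ran from 5041 to 14938 bp in KMS11 without TKO and from 13519 to 24824 bp in KMS34. The sums over 8 B cell markers (4828 to 10730 against 8570 to 16448 bp) and 7 stromal and endothelial markers (548 to 5863 against 3225 to 6397 bp) also ran higher in KMS34, with overlap, whereas those over 9 T and NK cell markers spanned 3722 to 10859 bp in KMS11 and 4874 to 8832 bp in KMS34. The part of these shifts in the differences between the lines was not tested.

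**Figure D1:**
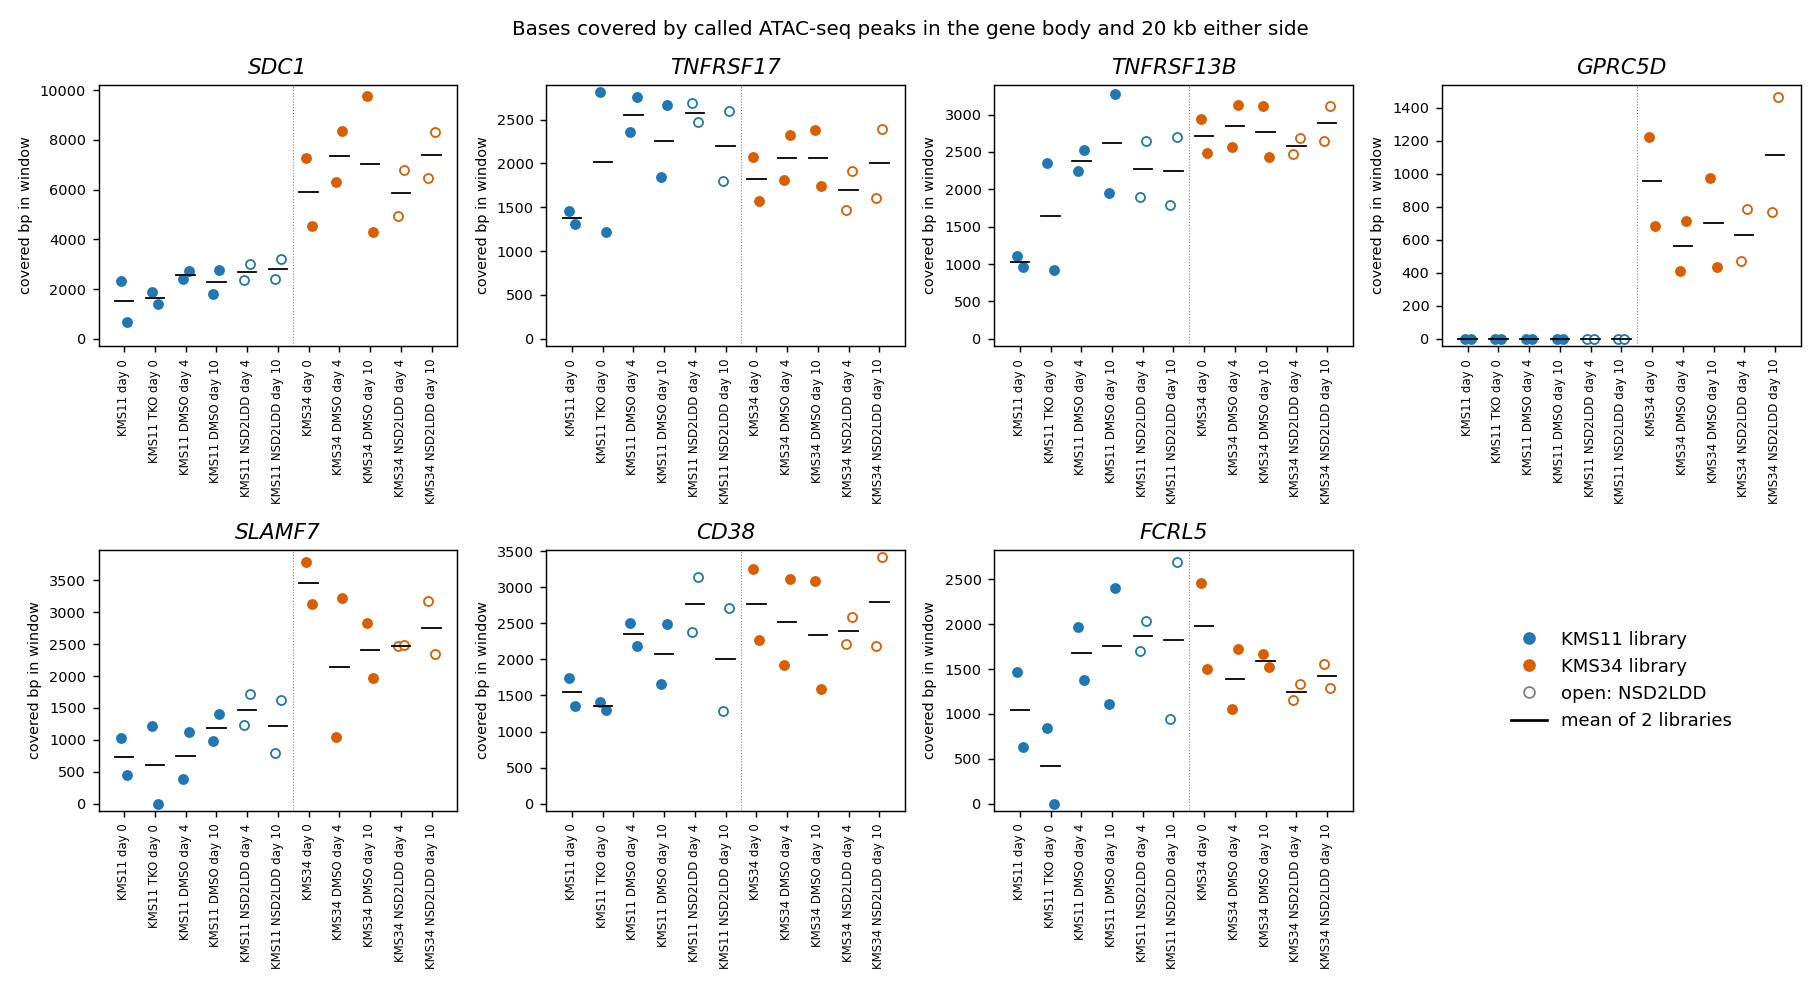
Covered bases (y axis, bp) in the body and 20 kb either side of each gene, by group on the x axis. Each point is 1 library, blue for KMS11 and orange for KMS34, open for NSD2LDD, and bars are means of 2 libraries. SDC1 separates the lines without overlap, and GPRC5D is at 0 in all 12 KMS11 libraries.

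The first comparison set KMS34 against KMS11 over the day 0 and DMSO libraries, 6 against 6. Covered bases, log2-transformed after adding 200 bp and scaled between libraries, were fitted for 18226 genes in limma, which shares its estimate of spread across genes. A gene was called at a Benjamini-Hochberg adjusted p under 0.05. Of the 7 members 3 were called higher in KMS34 (SDC1, GPRC5D and SLAMF7) and 0 lower. Among all genes tested 23.3% were called higher, 17.5% lower and 40.8% in either direction, so 3 calls among 7 genes lie near the share of calls over all genes. The median log2 difference was 0.27 over the 7 members and 0.03 over all genes. With no scaling between libraries the all-gene median rose to 0.29, with 5221 genes higher and 930 lower against 4255 and 3182 with scaling, and 4 members were called higher.

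SDC1 (chr2:20200797-20225475, minus strand) was the most broadly covered member in KMS34. Its covered length in KMS11 was 2309 and 698 bp at day 0, 2426 and 2736 bp after 4 days in DMSO, and 1805 and 2787 bp after 10 days. In KMS34 it was 7261 and 4549 bp at day 0, 6312 and 8379 bp after 4 days in DMSO, and 9760 and 4284 bp after 10 days. Every KMS34 library lay above every KMS11 library, a separation in that direction that 11.7% of all genes showed. The means were 6758 ± 2149 bp in KMS34 and 2127 ± 784 bp in KMS11 (SD, n = 6 each), a log2 difference of 1.36 ± 0.13 (SE, limma adjusted p = 3.11e-07). Peaks covered 10.4% ± 2.77 of the SDC1 window in the 10 KMS34 libraries, which placed it above 99.4% of tested genes. In the 10 KMS11 libraries without TKO they covered 3.67% ± 1.10, above 83.2% of tested genes. The call held in every fit that dropped a library, with log2 differences from 1.20 to 1.51.

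The difference at SDC1 lay mostly inside the gene. Peaks of the 22 libraries were merged into regions, and 6 of the 7 SDC1 regions tested were called higher in KMS34. Over all 69187 regions tested, 20% were higher, 14.2% lower and 34.3% called in either direction. A region with peaks in 1 line alone entered the test through that line, so its direction was fixed in advance. For such regions the p-value is no evidence beyond the counts of libraries. The region across the annotated start (chr2:20222711-20225694) was open in all 22 libraries and differed least, by 0.42 ± 0.14 on the log2 scale (adjusted p = 0.0273), with overlapping groups. That call was lost with −log10 q of at least 5 (0.68, adjusted p = 0.0818) and with lists of equal length (0.51, adjusted p = 0.316). It was also lost in limma without trend and robust (adjusted p = 0.0724) and with at least 50% of the region covered (1.56, adjusted p = 0.119). Of 22 fits that each dropped a library, 6 lost that call (adjusted p from 0.0721 to 0.0949), namely those without the second KMS11 day 0, first KMS11 DMSO day 10, second KMS11 DMSO day 4, first KMS34 day 0, first KMS34 DMSO day 10 or second KMS34 DMSO day 4 library. Farther into the body, chr2:20206832-20209120 was called in 10 of 10 KMS34 and 9 of 10 KMS11 libraries without TKO but was wider in KMS34, at 1438 ± 478 bp against 263 ± 172 bp (log2 difference 2.04 ± 0.22, adjusted p = 1.98e-06). The region chr2:20212565-20215283, in the middle of the gene, measured 2447 and 1396 bp in KMS34 at day 0 and 1106 to 2708 bp in its DMSO libraries. In KMS11 it measured 472 bp in 1 day 0 library and 392 bp in 1 DMSO library and was not called in the other 4. The groups did not overlap, and the log2 difference was 3.36 ± 0.52 (adjusted p = 0.000107), where 8.64% of all regions were higher without overlap. Near the start, chr2:20221765-20222193 was called in 8 of 10 KMS34 libraries and 0 of 12 KMS11 libraries. With lists of equal length its log2 difference was 0.55 in place of 1.67 and the call was lost (adjusted p = 0.382). A long noncoding RNA, LOC124905978, overlaps chr2:20206832-20209120 and chr2:20212565-20215283. A region 8860 bp below the gene (chr2:20191169-20191937) was called in 9 of 10 KMS34 libraries and in 1 of 12 KMS11 libraries. The sixth, 5957 bp above the gene (chr2:20231432-20232146), was called in 5 KMS34 libraries and 0 KMS11 libraries (adjusted p = 0.0429), and lost its call in all but 5 of the 22 fits that dropped a library: those without the second KMS34 DMSO day 10 library or any of the 4 KMS34 NSD2LDD libraries kept it, and the others gave adjusted p up to 0.129. One region went the other way in its counts, chr2:20242719-20243342, called in 6 of 12 KMS11 libraries and 0 of 10 KMS34 libraries, and it did not pass the test.

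GPRC5D (chr12:12940575-12952170, minus strand) had no called peak in its window in any of the 12 KMS11 libraries. In KMS34 its covered length was 1222 and 684 bp at day 0, 409 and 714 bp after 4 days in DMSO, and 971 and 433 bp after 10 days. The NSD2LDD libraries of KMS34 measured 472 and 786 bp at day 4 and 768 and 1464 bp at day 10. The lines did not overlap. The mean over day 0 and DMSO was 739 ± 314 bp (SD, n = 6) in KMS34 (limma adjusted p = 1.06e-06), and no fold is given against a line with no peak. The window passed the filter of at least 2 covered libraries through KMS34 alone, so the direction was fixed in advance. That p-value is no evidence beyond the counts of libraries. Windows covered in all 10 KMS34 libraries and in none of the 10 KMS11 libraries without TKO made up 1.29% of all genes. All the GPRC5D peaks fell in 3 regions, which lay at the upper end of the gene, where its annotated start is. The region over that start (chr12:12951787-12952764) was called in 10 of 10 KMS34 libraries at 577 ± 174 bp (n = 6) and in no KMS11 library. Its limma adjusted p was 5.94e-08, again with a direction fixed in advance. Of tested regions, 3.66% were called in all 10 KMS34 libraries and in none of the 10 KMS11 libraries without TKO. By the authors' fold enrichment, the strongest peak over the GPRC5D start reached 4.71 to 11.3 over the caller's background. In the same library, 30.0% to 68.7% of the peaks had a higher −log10 q. A neighbour inside the gene (chr12:12950705-12951396) was called in 6 of 10 KMS34 libraries, and chr12:12951460-12951746 between them in 1. GPRC5D-AS1, an annotated antisense RNA, overlaps these regions, and ATAC-seq does not tell strands apart. Even in KMS34 peaks covered 1.54% ± 0.67 of the window, a share above that of 41.1% of tested genes.

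SLAMF7 (chr1:160739057-160754821) was open beside the gene in both lines and inside the gene in KMS34 alone. Its covered length in KMS11 was 1031 and 442 bp at day 0, 391 and 1118 bp after 4 days in DMSO, and 978 and 1409 bp after 10 days. In KMS34 it was 3791 and 3136 bp at day 0, 1045 and 3227 bp after 4 days in DMSO, and 2830 and 1976 bp after 10 days. The groups overlapped through the 1045 bp library, which had the shortest KMS34 peak list (34165 peaks). The means were 2668 ± 993 bp in KMS34 and 895 ± 400 bp in KMS11, a log2 difference of 1.13 ± 0.30 (SE, limma adjusted p = 0.00612). The call was lost with every list cut to its 24979 strongest peaks (0.84, adjusted p = 0.0862), with 50 bp added in place of 200 (1.26, adjusted p = 0.0526) and with 50 kb on either side (0.06, adjusted p = 0.756), and with 5 kb on either side the difference was 1.79. Peaks within the gene body occurred in 9 of 10 KMS34 libraries, at 268 to 1393 bp where present, and in 0 of 12 KMS11 libraries. They fell in 3 regions near the gene's lower-coordinate end. The first (chr1:160739146-160739571) was called in 6 of 10 KMS34 libraries, overlaps the noncoding RNA LOC124904440 and was not significant, and the next 2 were called higher. Of these, chr1:160739912-160740662 occurred in 8 of 10 KMS34 libraries (348 ± 278 bp, n = 6, adjusted p = 0.00501) and chr1:160740978-160742023 in 3 of 10 (282 ± 348 bp, n = 6, adjusted p = 0.00723). The 3 were both day 0 libraries and the second DMSO day 4 library, so that difference rests mostly on day 0. No DMSO day 10 or NSD2LDD library had a peak there. Both regions had peaks in KMS34 alone, so their direction was fixed in advance. Above the gene, chr1:160767332-160768796 measured 1004 ± 240 bp in KMS34 and 275 ± 241 bp in KMS11 without overlap (log2 difference 1.71 ± 0.42, adjusted p = 0.00463). Of all regions, 8.64% were higher in KMS34 without overlap. With every list cut to its 24979 strongest peaks the call of this region was lost (1.71, limma adjusted p = 0.0503). Below it, chr1:160726109-160727365 was called in 21 of 22 libraries and did not pass the test.

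**Figure D2:**
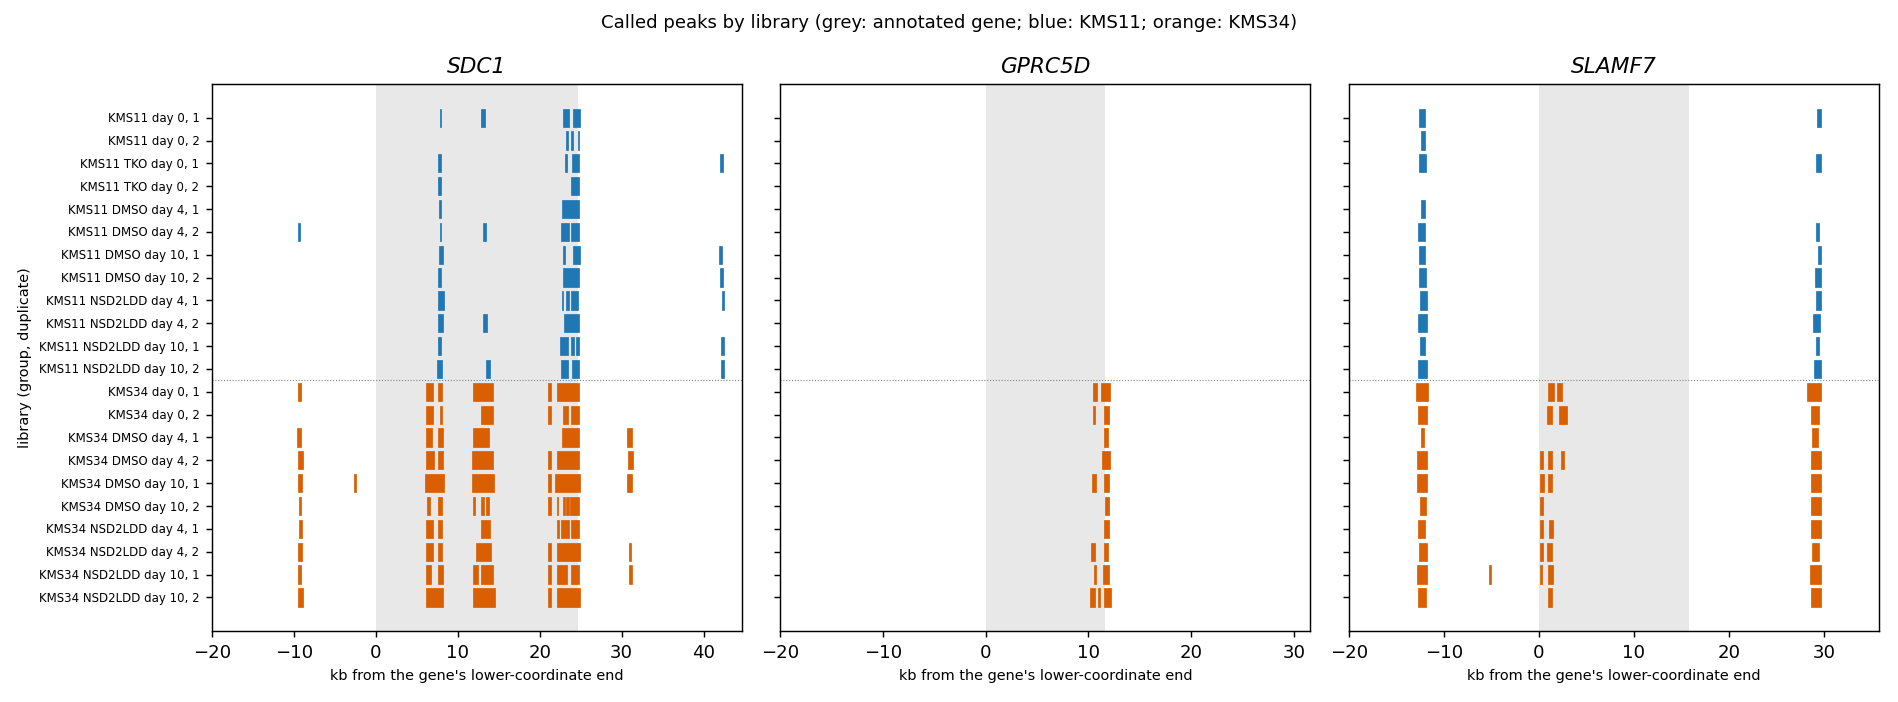
Called peaks in each of the 22 libraries (rows) against distance in kb from the lower-coordinate end of SDC1, GPRC5D and SLAMF7 (x axis). Grey marks the annotated gene, blue KMS11 and orange KMS34. Peaks inside GPRC5D and inside SLAMF7 appear in orange rows alone, and SDC1 peaks appear in every row but are wider in KMS34.

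The windows of the BAFF and APRIL receptors held peaks in every library of both lines, and neither gene was called. Inside the gene body, TNFRSF17 had a peak in 21 of 22 libraries. TNFRSF13B had one in all 22, away from its annotated start. TNFRSF17 (chr16:11965210-11968068) measured 1460 and 1306 bp in KMS11 at day 0, 2356 and 2759 bp after 4 days in DMSO and 1848 and 2672 bp after 10 days. In KMS34 it measured 2079 and 1567 bp at day 0, 1813 and 2320 bp after 4 days and 2378 and 1745 bp after 10 days. The ranges overlapped, and after scaling the log2 difference was −0.28 ± 0.11 (adjusted p = 0.0542). It was called lower with 5 kb on either side (−0.41, adjusted p = 0.0213) and without the first KMS11 day 0 library (−0.35, adjusted p = 0.0189) or either TKO library (−0.28 in both, adjusted p = 0.0222 and 0.0201). With no scaling the difference was −0.02 (adjusted p = 0.943), and with lists of equal length −0.05 and not called. Of its 6 regions 2 were called in all 22 libraries: chr16:11964203-11965432 over the gene's lower-coordinate end, and chr16:11976142-11977375, 8074 bp above the gene and overlapping SNX29. All 6 also lie in NPIPB2, whose annotated body contains TNFRSF17, so these peaks cannot be assigned to 1 gene. The region chr16:11970286-11970655 was the 1 called lower, present in 8 of 12 KMS11 libraries (184 ± 144 bp over the 6 compared) and 0 of 10 KMS34 libraries (adjusted p = 0.00193). Its peaks came from KMS11 alone, so that direction was fixed in advance. Of the 7 members TNFRSF17 had the highest mean share of its window covered in KMS11 (5.12% ± 1.27, n = 10).

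TNFRSF13B (chr17:16939081-16972118, minus strand) measured 1103 and 960 bp in KMS11 at day 0, 2243 and 2528 bp after 4 days in DMSO and 1953 and 3279 bp after 10 days. In KMS34 it measured 2938 and 2482 bp at day 0, 2564 and 3128 bp after 4 days and 3118 and 2428 bp after 10 days. The KMS11 day 0 libraries were the lowest, and 3279 bp in KMS11 exceeded every KMS34 value, so the groups overlapped. The log2 difference was 0.27 ± 0.12 (adjusted p = 0.0787). It was called higher in KMS34 without scaling (0.53, adjusted p = 0.0461), with −log10 q of at least 5 (0.39, adjusted p = 0.0127), with 50 kb on either side (0.44, adjusted p = 0.00741), and without the second KMS11 day 0 library (0.33, adjusted p = 0.0424) or either TKO library (0.27 and 0.26, adjusted p = 0.0280 and 0.0292). With 5 kb on either side it was 0.07 (adjusted p = 0.734), and with lists of equal length 0.46 (adjusted p = 0.187). Its 2 regions open in all 22 libraries were chr17:16969890-16970971, within the gene, and chr17:16988013-16990354, 15895 bp above it in the long noncoding RNA LINC02090. The second was wider in KMS34, at 1892 ± 369 bp against 1234 ± 607 bp (log2 difference 0.54 ± 0.17, adjusted p = 0.0240), and the groups overlapped. Left-out libraries raised that adjusted p to at most 0.0689, and 6 of 22 such fits lost the call: those without the first KMS11 day 0, the first KMS11 DMSO day 10, the second KMS11 DMSO day 4, the first KMS34 day 0, the first KMS34 DMSO day 10 or the first KMS34 DMSO day 4 library. A region inside the gene, chr17:16947533-16947811, was called in 4 KMS34 libraries and 0 KMS11 libraries.

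CD38 (chr4:15778328-15853232, plus strand) was open at its start in every library, and its whole window did not differ between the lines. It measured 1356 to 2510 bp in the 6 KMS11 libraries (median 1966.5 bp) and 1588 to 3261 bp in the 6 KMS34 libraries (median 2678 bp). The ranges overlapped widely, and the log2 difference was 0.05 ± 0.12 (95% interval −0.20 to 0.29, adjusted p = 0.773), and alternatives gave −0.15 to 0.40. With 5 kb on either side, which leaves out the regions in BST1, the neighbouring ectoenzyme gene, CD38 was called higher in KMS34 (0.40, adjusted p = 0.0176). The region over the start (chr4:15778021-15779532) was called in all 22 libraries. Deep in the gene body, chr4:15808883-15809704 was called in 10 of 10 KMS34 libraries and 5 of 12 KMS11 libraries, at 536 ± 189 bp against 125 ± 145 bp (log2 difference 1.54 ± 0.31, adjusted p = 0.00109), with overlapping groups. That call was lost with lists of equal length (adjusted p = 0.0942) and with at least 50% of the region covered (1.82, adjusted p = 0.0556). Its neighbour chr4:15805752-15806614 was called in 7 of 10 KMS34 libraries and 2 of 12 KMS11 libraries and did not pass the test. The 2 main regions below the gene, chr4:15765858-15766873 (21 of 22 libraries) and chr4:15771311-15771873 (15 of 22), lie in BST1.

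FCRL5 (chr1:157513377-157552515, minus strand) carried its most frequent peaks away from its annotated start. It measured 631 to 2406 bp in the 6 KMS11 libraries (median 1419.5 bp) and 1060 to 2459 bp in the 6 KMS34 libraries (median 1594.5 bp), and the ranges overlapped. The log2 difference was −0.07 ± 0.25 (95% interval −0.60 to 0.46, adjusted p = 0.845), and alternatives gave −0.30 to 0.19. The most frequent were 2 regions called in 21 of 22 libraries, all but 1 TKO library: chr1:157505412-157506240, 7137 bp below the gene, and chr1:157523708-157524768 inside it. In KMS34 the strongest peak of the latter had a fold enrichment of 9.59 to 17.1, and 10.1% to 27.3% of peaks in the same library had a higher −log10 q. In KMS11 without TKO these ranges were 4.62 to 11.8 and 19.6% to 67.1%, overlapping those of KMS34. This difference in peak strength was not tested. Near the start, chr1:157551885-157552359 was called in 2 KMS34 libraries alone. The outermost regions moved in opposite directions. chr1:157562544-157562938, above the gene, was called in 7 of 10 KMS34 and 0 of 12 KMS11 libraries (211 ± 109 bp over 6, adjusted p = 0.0175), and chr1:157495270-157496487, below it, measured 403 ± 358 bp in KMS11 and 113 ± 125 bp in KMS34 (log2 difference −1.32 ± 0.49, adjusted p = 0.0493). The first region had peaks in KMS34 alone, so its direction was fixed in advance. The first call was lost without the first KMS34 day 0 library (adjusted p = 0.0580) and with peaks of −log10 q of at least 5 alone (0.44 in place of 1.33, adjusted p = 0.244). The second was lost in 13 of 22 fits (adjusted p up to 0.145): those without the first KMS11 day 0, second KMS11 DMSO day 10, either KMS11 DMSO day 4, first KMS34 day 0, second KMS34 DMSO day 10 or first KMS34 DMSO day 4 library, either TKO library, or any day 4 NSD2LDD library.

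**Figure D3:**
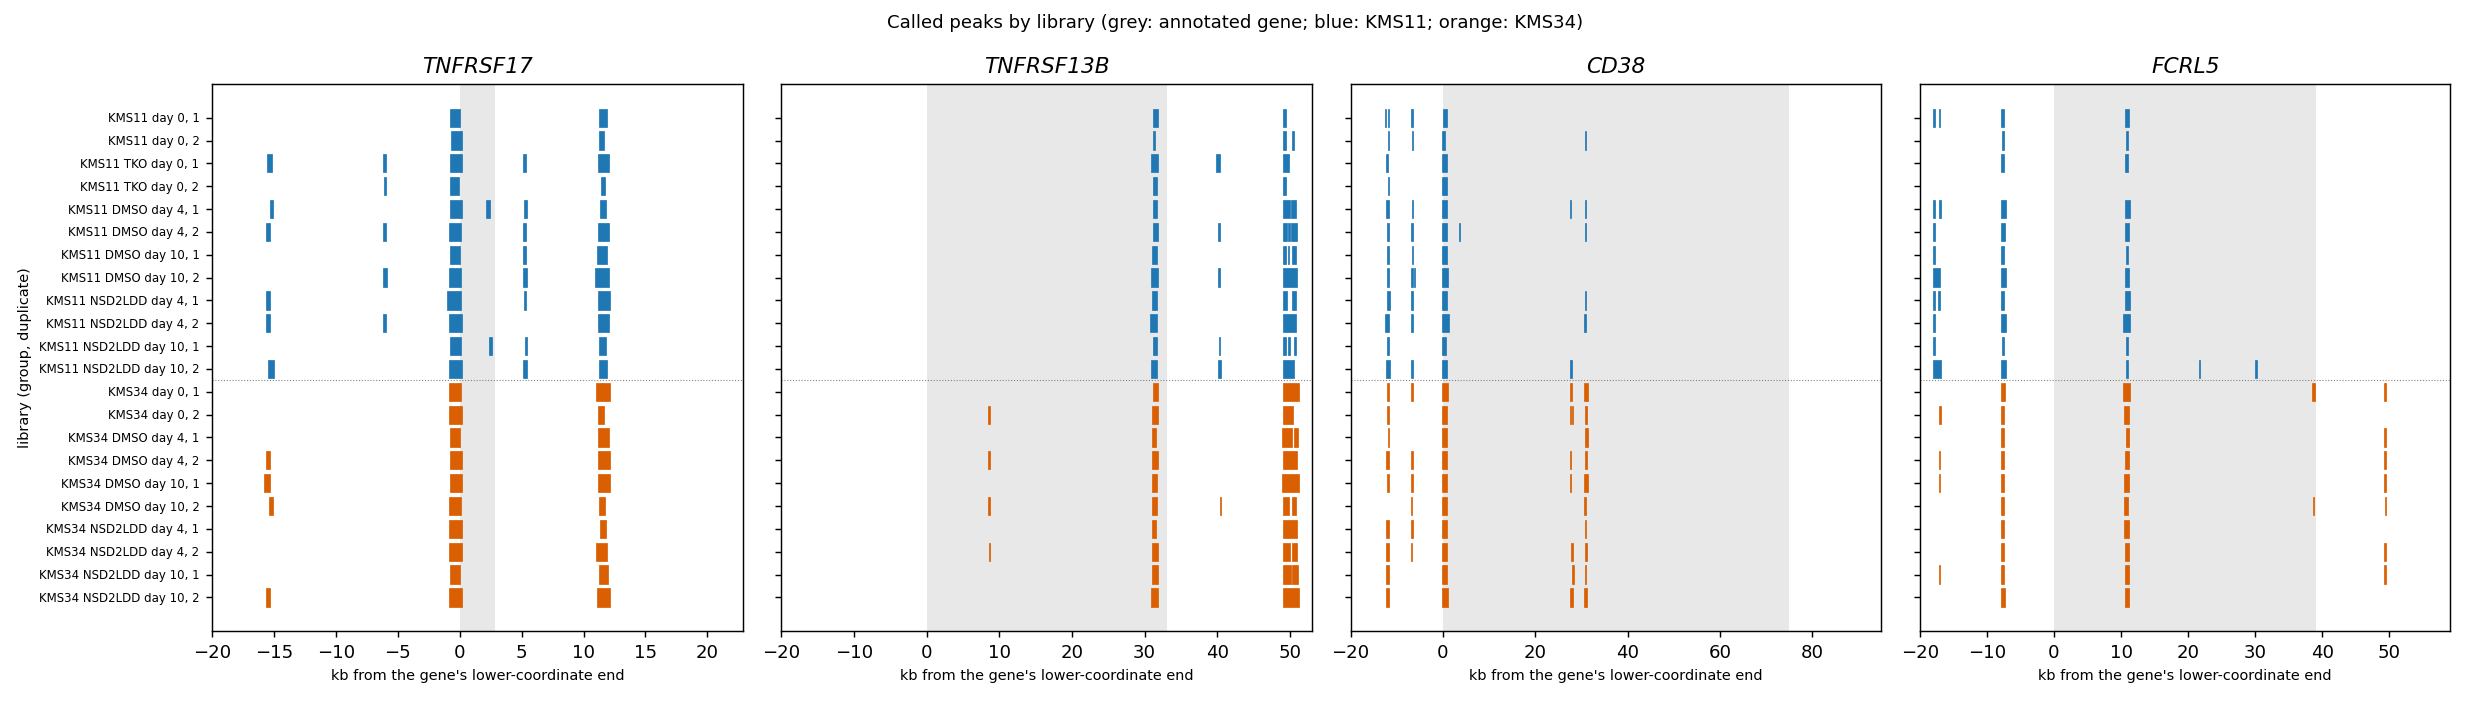
Called peaks in each of the 22 libraries (rows) against distance in kb from the lower-coordinate end of TNFRSF17, TNFRSF13B, CD38 and FCRL5 (x axis). Grey marks the annotated gene, blue KMS11 and orange KMS34. In these windows 5 regions are called in all 22 libraries, and the second TKO library has no peak in the FCRL5 window.

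Together the 7 windows held 41 regions, of which 34 were called in at least 2 libraries and tested, 7 were called in 1 library and 6 in all 22. Those 6 of 34 compare with 20.1% of all tested regions. Between the lines 13 of the 34 were higher in KMS34 and 2 lower, against 20% higher and 14.2% lower over all regions. Regions with peaks in 1 line alone are among these calls, and their direction was fixed in advance. With lists of equal length 21 of the 34 could be tested, and 4 were higher, 3 of them in SDC1 and 1 over the GPRC5D start, and 2 lower, against 16.5% and 18.8% of all regions. Of the 15 regions called in the first place, 10 were tested there and 5 called. The regions higher in KMS34 were spread over 6 of the 7 genes, with 6 in SDC1, 3 in SLAMF7 and 1 each in TNFRSF13B, GPRC5D, CD38 and FCRL5. By share of the window covered in KMS34, SDC1 stood first, followed by SLAMF7 (4.75% ± 1.38), TNFRSF17 (4.50% ± 0.81), TNFRSF13B (3.78% ± 0.40), CD38 (2.23% ± 0.54), FCRL5 (1.93% ± 0.49) and GPRC5D (SD, n = 10 each). The mean ± SD intervals of neighbours in this order overlapped, except between SDC1 and SLAMF7 and between TNFRSF13B and CD38. In KMS11 without TKO the order was TNFRSF17, SDC1, TNFRSF13B (2.89% ± 0.99), FCRL5 (2.06% ± 0.83), SLAMF7 (1.93% ± 0.80), CD38 (1.87% ± 0.53) and GPRC5D at 0, and the intervals of neighbours before GPRC5D overlapped.

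The series' main question was what NSD2LDD changes, and at these 7 genes no change was called. In KMS11, NSD2LDD was set against DMSO over days 4 and 10 together, 4 libraries against 4, and 0 of 7 members were called, 0 at an unadjusted p under 0.05. Over all genes limma called 0.011%, 2 genes, and 702 had an unadjusted p under 0.05. SDC1 measured 2348 and 2996 bp at day 4 and 2402 and 3230 bp at day 10 in NSD2LDD, against 2426, 2736, 1805 and 2787 bp in the same order in DMSO. The groups overlapped (log2 difference 0.13 ± 0.16, 95% interval −0.21 to 0.47). SLAMF7 measured 1233, 1714, 798 and 1630 bp in NSD2LDD and 391, 1118, 978 and 1409 bp in DMSO, which also overlapped (0.41 ± 0.37, 95% interval −0.37 to 1.19, and −0.02 to 0.48 over the alternatives). The estimates of the 6 members with a peak in KMS11 ran from −0.17 for TNFRSF13B to that of SLAMF7. GPRC5D had no called peak in KMS11 with or without NSD2LDD.

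In KMS34, 0 of 7 members were called, 0 at an unadjusted p under 0.05, where all genes gave 0.0165% called, 3 genes, and 1199 at an unadjusted p under 0.05. SDC1 measured 4959, 6774, 6485 and 8336 bp in NSD2LDD (day 4, then day 10, 2 libraries each) and 6312, 8379, 9760 and 4284 bp in DMSO, with overlap (−0.05 ± 0.16, 95% interval −0.40 to 0.29). GPRC5D, the member with the largest estimate, measured 873 ± 420 bp in NSD2LDD and 632 ± 265 bp in DMSO (n = 4 each), and its groups overlapped too (0.36 ± 0.25, 95% interval −0.17 to 0.89, adjusted p = 0.947). With lists of equal length that estimate turned to −0.90 (adjusted p = 0.645), and with 50 kb on either side it was 0.01. The lowest estimate was that of TNFRSF17, −0.14 ± 0.14, with −0.15 to 0.07 over the alternatives. A test of whether the NSD2LDD effect differed between the lines called 0 of 7 members and 0% of all genes, with 0 members and 618 genes at an unadjusted p under 0.05. These intervals leave room for changes of up to 1.19 on the log2 scale in SLAMF7, so a lack of a call does not show that NSD2LDD left these genes as they were.

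Region by region, 0 of 34 member regions were called for NSD2LDD in KMS11 (1 at an unadjusted p under 0.05), against 0.0694% of all regions, and 0 of 34 in KMS34 (4 at an unadjusted p under 0.05), against 0.986%. The difference between the lines also gave 0 of 34 calls (1 at an unadjusted p under 0.05), against 0.00578%. The smallest adjusted p among them in KMS34 was at the SLAMF7 region chr1:160739912-160740662, present in every one of the 4 NSD2LDD libraries at 489 ± 59.9 bp but 2 of the 4 given DMSO at 228 ± 265 bp (log2 difference 1.34 ± 0.47, adjusted p = 0.317). Without the second KMS34 DMSO day 4 library that region passed (1.93, adjusted p = 0.0414). Inside GPRC5D, chr12:12950705-12951396 had a peak in 3 NSD2LDD libraries and 1 DMSO library (1.06 ± 0.47, adjusted p = 0.469).

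**Figure D4:**
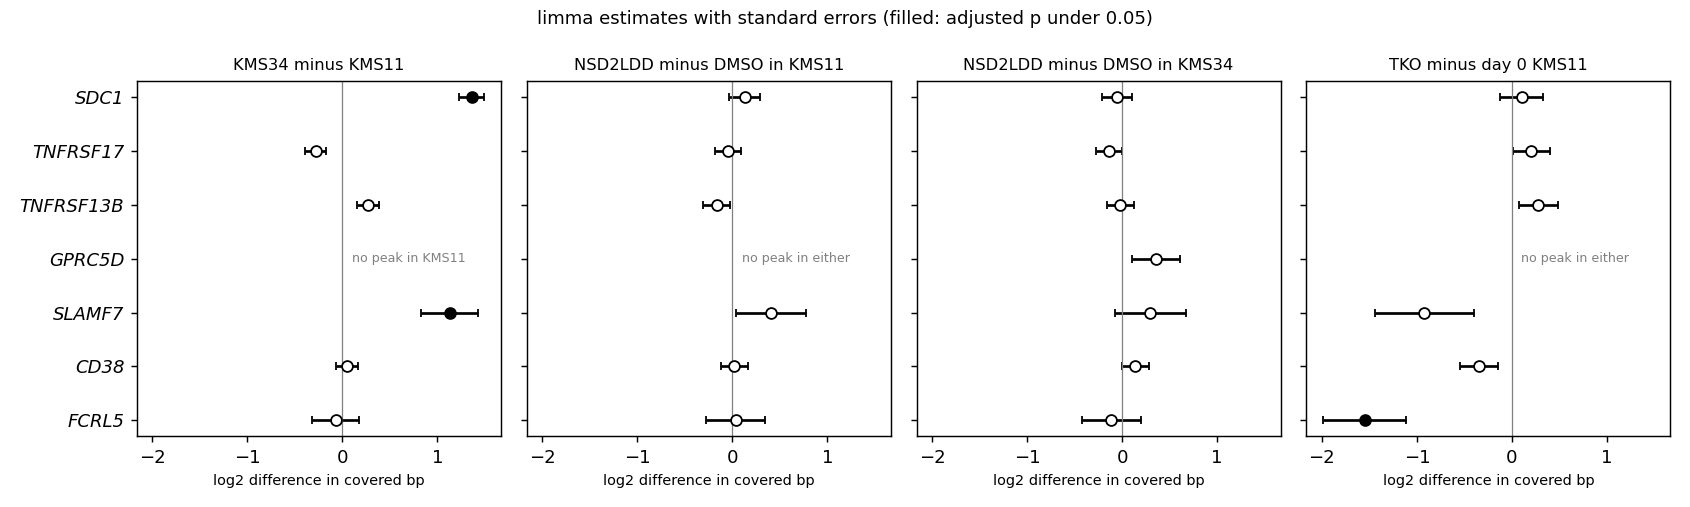
limma log2 differences in covered bases (x axis) with standard errors for the 7 genes (y axis) in 4 comparisons. Filled points have an adjusted p under 0.05, and no value is drawn where a group has no peak. Filled points are SDC1 (1.36) and SLAMF7 (1.13) between the lines and FCRL5 (−1.55) in TKO, and no point is filled for NSD2LDD.

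TKO was compared with untreated KMS11 at day 0, 2 libraries against 2. FCRL5 was called lower in TKO, 1 of 7 members, against 3.87% of all genes lower and 5.4% called in either direction. It measured 843 and 0 bp in TKO and 1465 and 631 bp in day 0 KMS11, so the groups overlapped, with a log2 difference of −1.55 ± 0.44 (SE, limma adjusted p = 0.0465). The call rests on the second TKO library, which had no FCRL5 peak and a list of 26887 peaks. Without that library the difference was −0.56 (adjusted p = 0.446), and without the first it was −2.53 (adjusted p = 0.000356). Of the 22 fits that dropped a library, 19 lost the call, all but those without the first TKO library or a KMS11 NSD2LDD day 10 library, as did the fit with no scaling (−1.36, adjusted p = 0.531). The same library had no SLAMF7 peak, and the other TKO library measured 1222 bp there, against 1031 and 442 bp at day 0 (−0.92 ± 0.52, adjusted p = 0.402). Without the first TKO library SLAMF7 was called lower (−2.13, adjusted p = 0.00554). SDC1 measured 1905 and 1394 bp in TKO against 2309 and 698 bp (0.10 ± 0.23), CD38 1416 and 1293 bp against 1742 and 1356 bp (−0.35 ± 0.20, adjusted p = 0.418), TNFRSF17 2816 and 1221 bp against 1460 and 1306 bp (0.20 ± 0.19), and TNFRSF13B 2357 and 923 bp against 1103 and 960 bp (0.28 ± 0.20). TKO and day 0 values overlapped in each, and GPRC5D had no peak in either group. Of 34 regions 0 were called (6 at an unadjusted p under 0.05), against 4.07% of all regions. With no scaling the all-gene median was 0.14 in place of −0.04, with 156 genes lower and 29 higher against 705 and 280.

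The other genes of these pathways were read in the same fits, as lists that leave the 7 members out. Between the lines, 4 of 17 genes of the BAFF and APRIL system were higher in KMS34 and 5 lower (list median −0.05), against 5 and 0 without scaling. CD40, a receptor of the same superfamily, was higher by 1.61 ± 0.22 (1054 ± 252 against 159.5 ± 127 bp) but not with lists of equal length (1.02, adjusted p = 0.0689), and TRAF6, an adaptor of these receptors, by 0.86 ± 0.13. Among 10 SLAM family genes and adaptors 2 were lower and 0 higher (median −0.25), LY9 at −1.10 ± 0.13 and CD244 at −0.96 ± 0.23, where SLAMF7 was higher. Without scaling LY9 alone was lower. Among 10 FCRL and Fc receptor genes 3 were lower and 1 higher (median −0.25), against 0 and 2 without scaling. Of the 3 other GPRC5 genes 2 were higher (median 0.97). GPRC5C was higher by 1.82 ± 0.26 (780 ± 338 against 27.7 ± 67.8 bp), and GPRC5A by 0.97 ± 0.37, a gene whose window overlaps that of GPRC5D and whose call held in 8 of the 22 fits that dropped a library and was lost with lists of equal length (adjusted p = 0.108). Of 12 syndecan, heparan sulfate and shedding genes 4 were lower and 2 higher (median −0.12), against 1 and 2 without scaling. SDC2, a syndecan of mesenchymal cells, was lower in KMS34, the reverse of SDC1, at 902 ± 335 against 3416 ± 731 bp (adjusted p = 6.24e-06). SDC3 was higher by 2.03 ± 0.37, but by −0.03 with lists of equal length.

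Of 7 CD38 partners and NAD ectoenzymes 3 were higher and 0 lower (median 0.08), led by NT5E, the ectonucleotidase CD73 (3560 ± 519 against 1349 ± 438 bp, 1.07 ± 0.13). Of 29 other surface antigens studied in myeloma 6 were higher and 8 lower (median −0.08), against 6 and 1 without scaling. CD79B (2.64 ± 0.34), CCR1 (2.21 ± 0.33) and CD86 (1.91 ± 0.20) were higher in KMS34 and CD47 lower (−0.73 ± 0.09). Of 10 plasma cell transcription factors 4 were higher and 3 lower (median 0.06), against 4 and 1 without scaling. IKZF3, which is degraded by lenalidomide-type drugs, was lower in KMS34, at 2958 ± 756 against 7160 ± 3235 bp (−1.37 ± 0.10). For NSD2LDD 0 genes of the 8 lists were called in either line. In TKO the BAFF, SLAM and GPRC5 lists had no call, and 1 gene each was called in the Fc receptor, syndecan, CD38 and transcription factor lists: FCRL1 (0.75 ± 0.19), ADAM10 (0.80 ± 0.19), ENPP1 (−0.79 ± 0.19) and ZBTB20 (−0.85 ± 0.19). The antigen list had 2 calls, ICAM1 higher (0.85 ± 0.23) and KIT, which had 882 ± 216 bp at day 0 and no peak in TKO (adjusted p = 7.84e-06). None of these TKO calls but that of KIT passed without scaling. Medians over the lists for TKO ran from −0.62 for the GPRC5 genes to 0.24 for the transcription factors, against −0.04 for all genes.

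As a description of pattern, the 3 genes most correlated with each member over the 22 libraries, among genes covered in at least 11 libraries and over 1 Mb away, were listed. GPRC5D was followed most closely by NEK10 (Pearson r = 0.98), KCNN4 (0.97) and PLN (0.97), and SDC1 by AGBL4 (0.96), ATN1 (0.95) and NPHS1 (0.95). SLAMF7 was followed by BIN2 (0.91), TPM4 (0.89) and COL27A1 (0.88), and FCRL5 by CREB5 (0.92), LRGUK (0.88) and TRPM3 (0.86). TNFRSF13B was followed by NHSL3 (0.88), C17orf113 (0.85) and KMT2A (0.82), TNFRSF17 by EEF1A1 (0.86), PARN (0.84) and ERCC4 (0.83), and CD38 by NECAP1 (0.78), GNAI1 (0.76) and GULP1 (0.74). The 22 points share 2 lines and their libraries' list lengths. Among the members SDC1 and GPRC5D correlated at 0.87 over the 22 libraries and at 0.26 within the 10 of KMS34, where GPRC5D has peaks. TNFRSF17 and SDC1 correlated at −0.66 over the 22 libraries, at −0.12 within KMS11 and at 0.29 within KMS34.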

How the data were processed

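Open chromatin was profiled by ATAC-seq in 22 libraries of 11 groups, 2 libraries each, and grouped by the submitters' labels. The authors deposited 1 hg38 peak list per library, which holds for each peak its fold enrichment over the caller's background (a ratio), its −log10 p and −log10 q, and a score that is the −log10 q times 10 as a whole number. The submitters' processing notes name fastp, BWA, SAMtools, Picard, MACS3 and deepTools. Not given in the sources used here were versions, thresholds, duplicate handling and any shift for the transposase. The smallest deposited −log10 q was 2.00. No read counts were used, so depth is unknown and list length (24979 to 52518 peaks) limits what can be called. No per-sample column was left unmapped (0 columns).

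Peaks of each library were merged, and the bases they cover were counted in each protein-coding gene's RefSeq body (GRCh38.p14) with 20 kb on either side, and in regions merged over all 22 libraries. Covered bases plus 200 (genes) or 100 (regions) were log2-transformed and scaled by each library's median over features called in every library. Features covered in at least 2 libraries were fitted with 11 group means in limma 3.58.1 (R 4.3.3, trend and robust), and p-values were Benjamini-Hochberg adjusted over all 18226 genes or 69187 regions, with 0.05 as the threshold. A log2 difference is on the scale of bases plus the added constant, so it understates changes of little-covered features. The 5 comparisons were KMS34 against KMS11, NSD2LDD against DMSO in each line, the difference between those effects, and TKO against day 0 KMS11. Other steps used Python 3.11.15 with pandas 2.3.3, numpy 2.4.6, matplotlib 3.10.9 and scipy 1.17.1, and the scripts were tested on simulated data.

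The members and lists were chosen with earlier results of these data known. Named were the 7 members, their regions called in at least 50% of a line's libraries or called by limma (up to 3 per member and comparison), up to 4 called genes per list, and the 3 genes most correlated with each member. Other regions, such as those in 1 to 5 libraries, were named after their values were seen. Alternatives varied the peak threshold, list length, scaling, constants, windows, filters, model and libraries, and the closing section gives their effect. Replicate numbers were not used to pair libraries in the main fits. Over 25 pairs of groups within a line, the correlation of same-numbered deviations ran from −0.22 to 0.26. Between DMSO and NSD2LDD at days 4 and 10 it was 0.07 and 0.26 in KMS11, and 0.17 and −0.11 in KMS34. Between day 0 KMS11 and TKO it was 0.17. At day 10 the 2 KMS11 libraries covered 17.9 and 26.7 Mb in DMSO, and 18.0 and 27.1 Mb in NSD2LDD. Those of KMS34 covered 31.8 and 20.9 Mb, and 25.4 and 29.1 Mb. Pairing by number within a day was not tested.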

Additional observations from a re-analysis of the deposited data

Results flagged for a closer look

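SLAMF7 in KMS34 under NSD2LDD had 1 library apart from the others. The first day 10 library measured 3174 covered bp, and the other libraries measured 2345, 2476 and 2480 bp. Its distance to the nearest of them was a larger part of the group's range than Dixon's 95% critical value for 4 samples allows. This was the 1 such library in 39 groups checked. Chance gives about 1 in 20 for each group checked, and 1 in 39 is not above that rate. The group of 4 pools days 4 and 10.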

How the results depend on the processing

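The peak lists carry no depth, so differences in list length could not be set against it. SDC1 and GPRC5D were called between the lines under all 11 alternatives and all 22 fits that dropped a library. For GPRC5D, which had no KMS11 peak, the direction was fixed in advance. Members called between the lines numbered 3, but 2 with lists of equal length or 50 bp added (SLAMF7 was lost), 4 with no scaling or −log10 q of at least 5, and 5 with 5 kb on either side (1 of them lower), and ranged from 3 to 5 over the fits that dropped a library (5 without either TKO library). Member regions called there numbered 15, and 6 with lists of equal length. The 1 member called in TKO, FCRL5, fell to 0 with lists of equal length, with no scaling, with limma without trend and robust, with 50 or 1000 bp added, with 5 or 50 kb on either side and with KMS11 libraries only, and to 0 with the replicate block. Over dropped libraries this count ranged from 0 to 2, the latter without the first TKO library. Member regions called in TKO went from 0 to 1 with lists of equal length, to 2 against day 0 and DMSO KMS11 together, and over dropped libraries ranged from 0 to 3. For NSD2LDD in KMS34 they went from 0 to 1 when at least 50% of the region had to be covered, which was chr2:20231432-20232146 of SDC1 (−2.05, adjusted p = 0.0140), and ranged from 0 to 1 over dropped libraries. With the replicate block, a shift between replicate numbers shared by all groups of a line, 3 members and 14 regions were called between the lines. Of 25 pairs of groups 4 correlated above 0.1 and 8 under −0.1. Among the members and their regions 0 calls turned in direction, but of the list genes called between the lines SDC3 (2.03) and MEF2C (0.71) came to −0.03 and −0.02 with lists of equal length, neither called there. For all genes, calls between the lines ranged from 5960 to 9146 against 7437, NSD2LDD calls from 0 to 5 against 2 in KMS11 and from 0 to 39 against 3 in KMS34, and TKO calls from 185 to 1521 against 985. The causes of these shifts were not tested.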
